A study of Mus musculus with 11 samples.

Results

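The 9 genes described here, Stat2, Stat3, Irf1, Irf7, Irf8, Irf9, Nlrc5, Socs1 and Socs3, encode regulators of interferon and cytokine signalling. They were taken by symbol from the 25827 genes of the files, and all 9 were found. Their unique molecular identifiers (UMIs, 1 per captured transcript) were summed per library and cell class over 11 single-nucleus RNA-sequencing libraries made from the cerebellum, brainstem and cervical cord of mice. The mice were males of 8 to 12 weeks, and all of them carried loxP sites in both alleles of Il12rb2, a chain of the interleukin-12 receptor, so no group was wild type at this gene. NestinCre/+Il12rb2fl/fl mice also carried Cre recombinase under control of Nestin, a gene of neural stem cells that give rise to neurons, astrocytes and oligodendrocytes, and not of the lineage of microglia, border macrophages and blood leukocytes. Experimental autoimmune encephalomyelitis (EAE), a model of multiple sclerosis induced by immunization with a myelin peptide in adjuvant together with pertussis toxin, was sampled at day 10. There were 4 samples of Il12rb2fl/fl mice with EAE (fl EAE), 4 of NestinCre/+Il12rb2fl/fl mice with EAE (NestinCre EAE), 2 of non-immunized Il12rb2fl/fl mice (fl naive) and 1 of a non-immunized NestinCre/+Il12rb2fl/fl mouse (NestinCre naive). Replicates 1 to 3 of both EAE groups came from sequencing run 1, replicate 4 of both and fl naive 2 from run 2, and fl naive 3 and NestinCre naive 2 from run 3. By the study's methods the EAE samples came from 4 mice of each genotype, and the labels number the samples without naming the mice.

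Interferons and many interleukins act through Janus kinases, which phosphorylate STAT transcription factors bound to the receptor. STAT2 acts with IRF9 on interferon-stimulated response elements (ISRE), STAT3 carries signals of interleukin-6 family cytokines, and the interleukin-12 receptor itself signals mainly through STAT4. IRF1 is an early target of interferon-gamma, IRF7 amplifies the production of type I interferon, and IRF8 is needed for the development of microglia and other myeloid cells. NLRC5 switches on the genes of MHC class I antigen presentation, while SOCS1 and SOCS3 are induced by the same pathways and inhibit them.

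Nuclei were grouped into 21 classes by marker genes, and 161452 nuclei of 189709 barcodes were kept. A class was tested if each sample held 10 or more of its nuclei, which left 10 classes. They are granule cells, mature oligodendrocytes, microglia, astrocytes, oligodendrocyte progenitor cells, Bergmann glia, border macrophages, molecular layer interneurons, and other excitatory and inhibitory neurons. The region of the excitatory and inhibitory neurons was not determined, and no separate class of Golgi cells of the cerebellum was named. Libraries held 40761007 to 86063464 UMIs. Il12rb2 itself was at 11.2 to 16.5 counts per 1000000 UMIs (CPM) in the fl EAE samples and at 7.72 to 17.0 CPM in the NestinCre EAE samples, and since reads over the whole gene including introns were counted, this level does not check the deletion. Infiltrating nuclei (phagocytes, neutrophils and T or NK cells together) numbered 17, 10, 40 and 28 in fl EAE 1 to 4. NestinCre EAE 1 to 4 held 198, 162, 141 and 72 of them, so that the libraries differed in their leukocyte content along with the genotype. The largest share of barcodes found in 2 libraries was 0.685% of the smaller one, and no pair of libraries held the same counts.

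The promoters of the members were searched for the letters of 2 motifs, because the STAT and IRF members act on such elements, which are also known to control interferon-inducible genes. These were the ISRE core, GAAA followed by 2 bases of any kind and a second GAAA, read on both strands, and the STAT element GAS, TTCNNNGAA, which reads the same on both strands. Windows were the 250 bases before the start of each gene's canonical transcript in GENCODE vM39 on GRCm39. The ISRE letters were present in 3.32% and the GAS letters in 7.70% of the 21757 protein-coding genes. Stat2 (chr10:128106130-128106169, plus strand) held 1 ISRE match from position -207, and Irf1 (chr11:53660741-53660769, plus strand) held 1 GAS match from position -90. Irf8 (chr8:121462911-121462967, plus strand) held 2 GAS matches, from positions -171 and -153, and Socs3 (chr11:117860328-117860356, minus strand) held 1 from position -223. The other 5 members had none of these letters in this window. The stretches are shown 5′ to 3′ on the strand of the gene with the matches in capitals, which do not overlap each other, and those of Irf1 and Socs3 lie in exons annotated for other transcripts.
Stat2: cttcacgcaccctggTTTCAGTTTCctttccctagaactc
Irf1: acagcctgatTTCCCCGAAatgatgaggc
Irf8: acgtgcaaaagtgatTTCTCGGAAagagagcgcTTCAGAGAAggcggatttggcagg
Socs3: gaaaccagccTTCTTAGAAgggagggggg

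In fl EAE samples all 9 members had their highest mean level among the 10 classes in microglia or border macrophages, the resident phagocytes of the parenchyma and of its borders. Levels are given as CPM of the class, mean ± SD over 4 samples, and since the classes come from clusters of the same counts they are a description with no test. Irf8 showed the steepest order, with 285 ± 45.8 CPM in microglia, 113 ± 82.1 in border macrophages and at most 0.529 ± 0.573 in the 8 other classes, and microglia were separated from border macrophages in every sample. Stat3 was at 285 ± 41.1 CPM in microglia and 217 ± 88.4 in border macrophages, which overlapped, and then followed oligodendrocyte progenitor cells (80.0 ± 23.5), astrocytes (72.8 ± 11.2) and mature oligodendrocytes (70.1 ± 23.8), which overlapped one another. Molecular layer interneurons were lowest for Stat3 (19.97 ± 2.36) and below the range of inhibitory neurons, the next class. Stat2 differed from the other members in that granule cells, the most numerous neurons of the cerebellum, were high as well, at 115 ± 7.14 CPM beside 135 ± 83.2 in microglia, and above the samples of molecular layer interneurons (47.2 ± 1.44). Irf9 was at 169 ± 62.0 CPM in border macrophages, 68.2 ± 18.6 in microglia and between 10.5 and 31.0 in the other classes, whose samples overlapped from each class to the next.

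The remaining members were lower outside phagocytes in fl EAE samples. Irf1 was at 74.4 ± 40.5 CPM in border macrophages and 39.5 ± 28.0 in microglia, and at 0.504 to 2.88 CPM in the other 8 classes. Nlrc5 was at 230 ± 94.2 and 120 ± 107 CPM in these phagocytes, about 8.35 to 14.3 in the 4 glial classes (astrocytes, progenitors, mature oligodendrocytes and Bergmann glia) and 0.477 to 3.26 in the 4 neuron classes. The glial means of Nlrc5 rested largely on fl EAE 3, at 31.2 to 52.5 CPM against 0 to 12.0 in the other fl EAE samples. The same held in excitatory neurons (11.6 CPM against 0 to 0.901). Irf7, Socs1 and Socs3 were highest in microglia, at 13.7 ± 6.29, 7.26 ± 2.65 and 17.6 ± 7.12 CPM, with neighbouring classes that overlapped. In the fl EAE libraries no UMI of Irf8 was found in astrocytes, Bergmann glia or progenitors, none of Irf7 in astrocytes or border macrophages, none of Socs1 in border macrophages, and none of Socs3 in astrocytes or Bergmann glia, where 3 UMIs over the group, the limit taken for a count of 0, correspond to 1.55 CPM in astrocytes, 2.67 in Bergmann glia, 2.68 in progenitors and 26.2 in border macrophages. The limit covers counting error only. Socs3 also had no UMI in Bergmann glia of the NestinCre EAE or naive libraries.

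**Figure D1:**
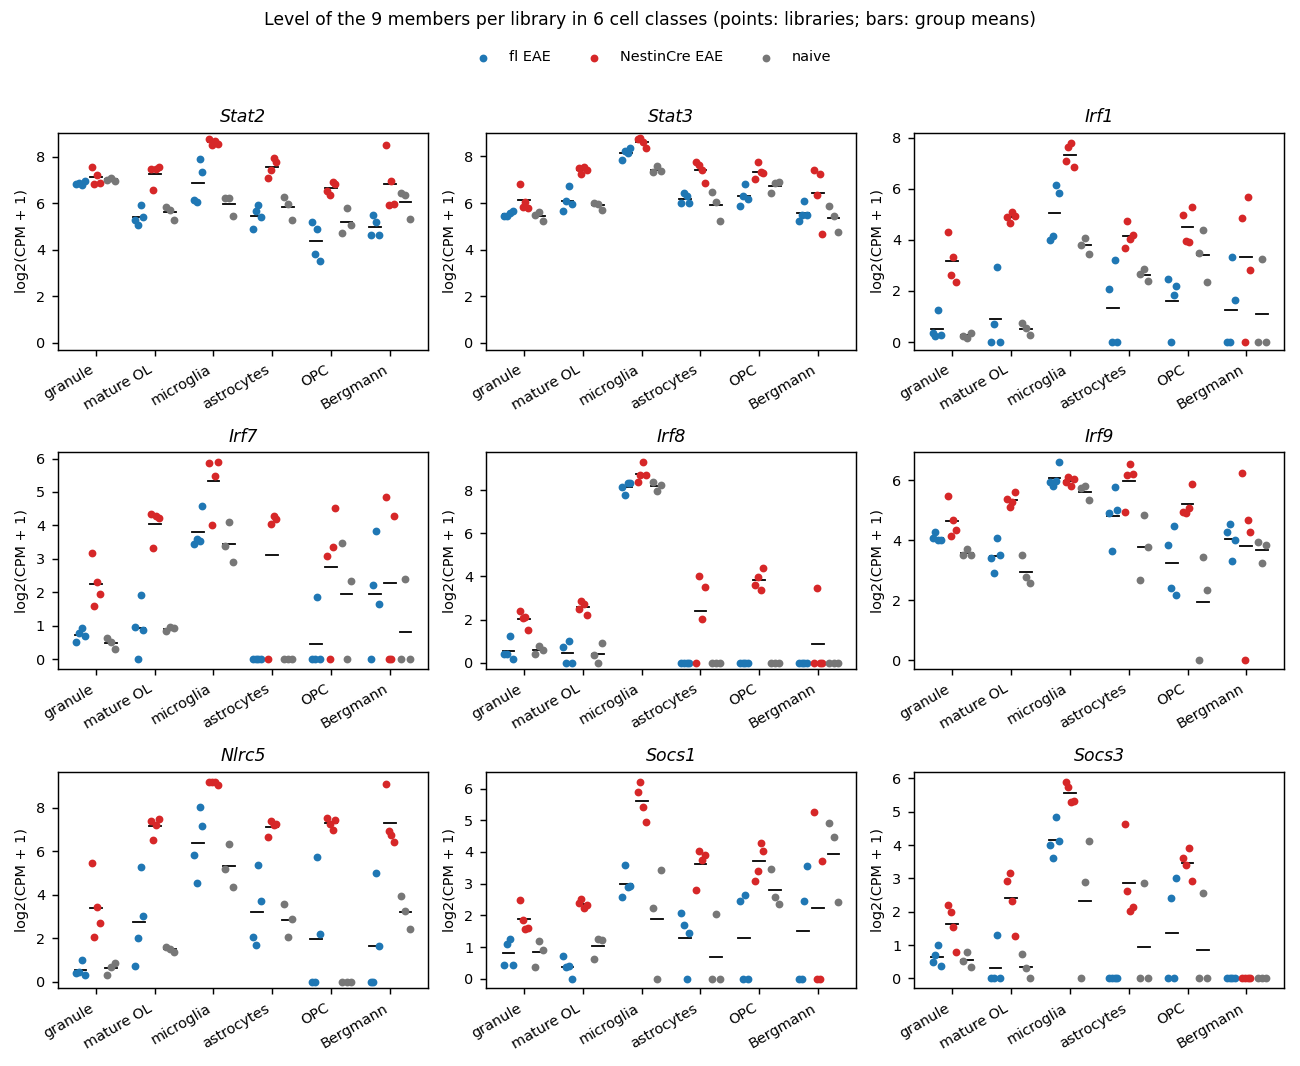
Level of the 9 members as log2(CPM + 1) in 6 cell classes, 1 point per library, with bars for the means of 4 fl EAE, 4 NestinCre EAE and 3 naive libraries (OL, oligodendrocytes; OPC, oligodendrocyte progenitor cells). In mature oligodendrocytes the NestinCre EAE points of Nlrc5 (90.7 to 175 CPM) all lie above those of fl EAE (0.642 to 37.1 CPM), while Irf9 in microglia overlaps between the groups.

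The main question was whether the members differ between the genotypes at day 10 of EAE. Of 90 pairs of member and class, 50 passed the filter on low counts. The filter asked for counts in as many samples as 1 group holds, so a member near 0 in fl EAE could pass through NestinCre EAE alone. Such pairs included Socs1 (5 and 72 UMIs) and Irf8 (8 and 81) in mature oligodendrocytes and Socs1 in microglia (8 and 112). Nlrc5 in Bergmann glia (8 and 97) and in progenitors (21 and 184) were others. The numbers of tested and called members, and tallies by class such as 8 of 8, therefore depend in part on the high group. Of the 50 pairs, 26 were higher in NestinCre EAE than in fl EAE at an adjusted p under 0.05. None was lower at that threshold. An unadjusted p under 0.05 was found for 41 pairs. Over all genes it was found for 1227 of 12128 in mature oligodendrocytes, 1221 of 7170 in microglia and 1444 of 15600 in granule cells. All 9 members were called in at least 1 class, and Nlrc5 was called in the most, 6 of the 10 classes in which it was tested. The calls fell in mature oligodendrocytes (8 of 8 tested members), microglia (6 of 8), granule cells (5 of 9), astrocytes (3 of 4), oligodendrocyte progenitor cells (3 of 3) and Bergmann glia (1 of 2). Among all genes tested, those called higher made up 1.43% in mature oligodendrocytes, 4.73% in microglia, 1.72% in granule cells, 0.622% in astrocytes, 0.617% in progenitors and 0.125% in Bergmann glia. No member was called in border macrophages (0 of 3), excitatory neurons (0 of 4), inhibitory neurons (0 of 4) or molecular layer interneurons (0 of 5), where the shares over all genes were 0.252%, 0.0197%, 0.0384% and 0.0463%. At an unadjusted p under 0.05 these 4 classes had 1, 2, 3 and 3 members. Over all genes they had 84 of 793, 573 of 10173, 613 of 13019 and 636 of 12965 at that p. The lack of calls holds for the main fit. The DESeq2 alternative and the fit with no filter beyond 1 UMI each placed at least 1 call among these 4 classes.

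**Figure D2:**
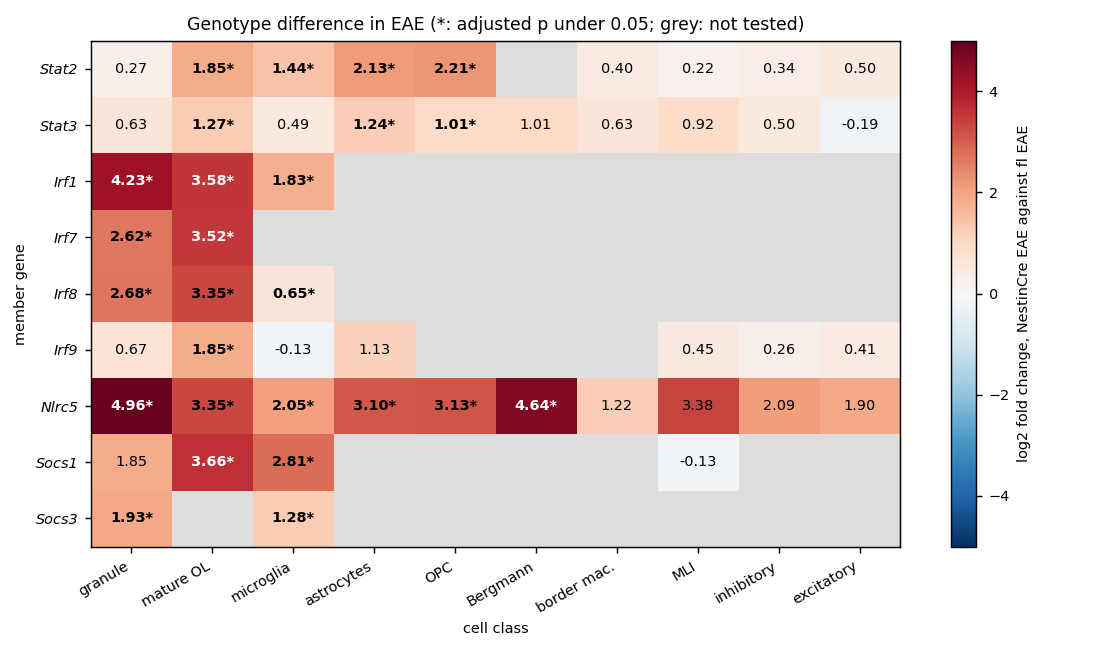
Log2 fold change of each member (rows) in each cell class (columns) between 4 NestinCre EAE and 4 fl EAE samples, with red for higher in NestinCre EAE, grey where the low-count filter was not passed and a mark on the 26 called pairs. Values in mature oligodendrocytes run from 1.27 for Stat3 to 3.66 for Socs1, and Nlrc5 in granule cells is at 4.96 (3.72 without NestinCre EAE 1).

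In mature oligodendrocytes, the myelinating cells and a target of the Cre, the interferon-responsive factors Stat2 and Irf9 rose together. Stat2 was at 37.9, 32.9, 60.6 and 41.1 CPM in fl EAE 1 to 4 and at 176, 95.2, 177 and 187 CPM in NestinCre EAE 1 to 4. The groups did not overlap, with NestinCre EAE 2 the lowest of its group. The log2 fold change of Stat2 was 1.85 ± 0.23 (approximate SE, adjusted p = 0.0024). Irf9, its DNA-binding partner, rose from 10.5 ± 3.88 to 40.0 ± 6.25 CPM, a log2 fold change of 1.85 ± 0.21 (adjusted p = 0.0024). Stat3 rose less, by 1.27 ± 0.18 on the log2 scale, with means of 70.1 ± 23.8 and 171 ± 15.2 CPM (adjusted p = 0.0046), and fl EAE 3, at 104 CPM, stayed below the lowest NestinCre EAE sample, at 150 CPM.

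The inducible factors of mature oligodendrocytes started from near 0. Irf1 was at 0, 0.615, 6.68 and 0 CPM in fl EAE 1 to 4 and at 28.9, 24.2, 32.9 and 29.2 CPM in NestinCre EAE 1 to 4, with a log2 fold change of 3.58 ± 0.56 (adjusted p = 0.0062). All NestinCre EAE samples were alike for Irf1, and the single fl EAE sample with a clear level was fl EAE 3. Irf7, at 1.14 ± 1.17 CPM in fl EAE, reached 15.99 ± 4.75 CPM in NestinCre EAE, a log2 fold change of 3.52 ± 0.47 (adjusted p = 0.0031). Irf8, a gene of myeloid cells, went from 8 UMIs over the 4 fl EAE libraries to 81 over the 4 NestinCre EAE libraries (0.405 ± 0.487 against 5.03 ± 1.16 CPM, log2 fold change 3.35 ± 0.50, adjusted p = 0.0049). For Irf1 the DESeq2 alternative gave an adjusted p of 0.11.

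Nlrc5, the class I transactivator, was at 0.642, 3.07, 37.1 and 7.22 CPM in mature oligodendrocytes of fl EAE 1 to 4 and at 165, 90.7, 144 and 175 CPM in those of NestinCre EAE 1 to 4. No fl EAE sample reached the NestinCre EAE range, though fl EAE 3 stood well above the other 3 (log2 fold change 3.35 ± 0.59, adjusted p = 0.011). Without fl EAE 3 the value was 5.31 for Nlrc5, 6.93 for Irf1, 4.66 for Irf7 and 4.38 for Irf8. Socs1, the feedback inhibitor of interferon signalling, rose from 5 to 72 UMIs over the group, or 0.319 ± 0.262 to 4.19 ± 0.467 CPM (log2 fold change 3.66 ± 0.46, adjusted p = 0.0029). Socs3 did not pass the filter and was at 0, 0, 1.47 and 0 CPM in fl EAE 1 to 4 and 6.57, 7.96, 3.96 and 1.39 CPM in NestinCre EAE 1 to 4.

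In oligodendrocyte progenitor cells 3 members passed the filter and all 3 rose. Nlrc5 was at 0, 0, 52.5 and 3.54 CPM in fl EAE 1 to 4 and at 184, 149, 125 and 171 CPM in NestinCre EAE 1 to 4 (log2 fold change 3.13 ± 0.39, adjusted p = 4.2e-07). Again fl EAE 3 was the highest of its group, and it stayed below all 4 NestinCre EAE samples, with a log2 fold change of 6.49 when it was left out. Stat2 rose by 2.21 ± 0.32 on the log2 scale, from 22.1 ± 12.2 to 101 ± 18.4 CPM (adjusted p = 6.6e-06), and Stat3 from 80.0 ± 23.5 to 165 ± 36.3 CPM (1.01 ± 0.22, adjusted p = 0.0097). Under DESeq2 the adjusted p was 0.92 for Nlrc5 and 0.083 for Stat3, so that 1 call was left. The members below the filter, given as counts over the group, had 3 Irf1 UMIs in fl EAE and 31 in NestinCre EAE, 0 and 17 of Irf8, 13 and 47 of Irf9, 1 and 14 of Irf7, 3 and 15 of Socs1, and 3 and 11 of Socs3.

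Astrocytes, which support synapses and the blood-brain barrier, showed a like set of calls. Nlrc5 was at 3.19, 2.27, 39.9 and 12.0 CPM in fl EAE 1 to 4 and at 100, 168, 145 and 149 CPM in NestinCre EAE 1 to 4, with no overlap (log2 fold change 3.1 ± 0.37, adjusted p = 3.8e-06, and 4.42 without fl EAE 3). Stat2 was at 28.7, 49.8, 59.9 and 41.1 CPM in fl EAE and at 136, 174, 249 and 218 CPM in NestinCre EAE (2.13 ± 0.23, adjusted p = 4.9e-07). Both groups were tight for Stat2 beside their distance. Stat3 rose from 72.8 ± 11.2 to 175 ± 45.5 CPM (1.24 ± 0.20, adjusted p = 0.00055). Irf9 was at 31.0 ± 17.2 and 66.5 ± 26.4 CPM with overlapping samples (1.13 ± 0.35, adjusted p = 0.24). No UMI of Irf7, Irf8 or Socs3 was found in fl EAE astrocytes, against 14, 7 and 7 UMIs over the NestinCre EAE libraries.

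In Bergmann glia, the radial astrocytes of the cerebellar cortex, only Nlrc5 and Stat3 passed the filter. Nlrc5 was at 0, 0, 31.2 and 2.16 CPM in fl EAE 1 to 4 and at 543, 120, 108 and 85.8 CPM in NestinCre EAE 1 to 4 (log2 fold change 4.64 ± 0.68, adjusted p = 0.0030). NestinCre EAE 1 lay far above the others, and without it the value was 3.77 on the log2 scale (adjusted p = 0.052), while without fl EAE 3 it was 6.64. DESeq2 also gave no call (adjusted p = 0.18). Stat3 was at 47.7 ± 13.3 and 105 ± 65.9 CPM (1.01 ± 0.39, adjusted p = 0.53).

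In microglia, which lie outside the lineage of the Cre, 6 of 8 members rose. Nlrc5 was at 54.8, 22.2, 262 and 142 CPM in fl EAE 1 to 4 and at 580, 581, 577 and 518 CPM in NestinCre EAE 1 to 4 (log2 fold change 2.05 ± 0.32, adjusted p = 0.00019, and 2.87 without fl EAE 3). The NestinCre EAE samples were nearly equal, while the fl EAE samples spread over an order of magnitude. Irf1 was at 14.9, 16.6, 70.2 and 56.1 CPM in fl EAE and at 136, 196, 220 and 114 CPM in NestinCre EAE (1.83 ± 0.31, adjusted p = 0.00064), and Stat2 was at 69.8, 66.5, 241 and 162 CPM against 432, 364, 409 and 375 CPM (1.44 ± 0.25, adjusted p = 0.00074). For all 3 of these genes fl EAE 3 and fl EAE 4 were above fl EAE 1 and fl EAE 2, and all fl EAE samples were below all NestinCre EAE samples.

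Both inhibitors rose in microglia as well. Socs1 was at 4.98, 11.1, 6.39 and 6.60 CPM in fl EAE 1 to 4 and at 58.7, 73.3, 42.0 and 29.6 CPM in NestinCre EAE 1 to 4, resting on 8 and 112 UMIs (log2 fold change 2.81 ± 0.43, adjusted p = 0.00017). Socs3 was at 17.6 ± 7.12 and 46.9 ± 10.1 CPM (1.28 ± 0.34, adjusted p = 0.023). Irf8, already high in this class, was at 279, 222, 317 and 320 CPM in fl EAE and at 330, 412, 623 and 415 CPM in NestinCre EAE, a narrow gap (0.65 ± 0.19, adjusted p = 0.045). The calls of Irf8 and Socs3 were the least stable in this class. For Irf8 the adjusted p was 0.075 with DESeq2 and up to 0.23 with 1 sample left out (NestinCre EAE 3), and for Socs3 it was 0.089 and up to 0.11 (NestinCre EAE 1). Stat3 was at 285 ± 41.1 and 398 ± 53.8 CPM (0.49 ± 0.16, adjusted p = 0.087). Irf9 was at 68.2 ± 18.6 and 62.2 ± 5.36 CPM (-0.13 ± 0.23, adjusted p = 0.84), unlike in mature oligodendrocytes, and this difference between the classes was not tested. Irf7, below the filter, was at 9.97, 11.1, 10.6 and 23.1 CPM in fl EAE and at 57.0, 15.3, 43.9 and 58.2 CPM in NestinCre EAE.

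Border macrophages, sampled by 12 or more nuclei per EAE library, had too few UMIs for most members. Nlrc5 was at 163, 135, 317 and 305 CPM in fl EAE 1 to 4 and at 534, 559, 761 and 515 CPM in NestinCre EAE 1 to 4, which did not overlap, yet the adjusted p was 0.11 (log2 fold change 1.22 ± 0.35). Stat2 (0.40 ± 0.47) and Stat3 (0.63 ± 0.39) overlapped between the groups. Irf9, below the filter, lay the other way, at 108, 135, 185 and 249 CPM in fl EAE and at 0, 112, 0 and 41.2 CPM in NestinCre EAE, on 21 and 5 UMIs with overlapping samples. The other members below the filter had more UMIs in NestinCre EAE. These were Irf8 (15 and 44 UMIs), Irf1 (8 and 30), Socs3 (1 and 9), Socs1 (0 and 7) and Irf7 (0 and 5), and only Irf8 and Irf7 did not overlap. In infiltrating phagocytes, which were not tested because fl EAE 2 held 4 of them, Nlrc5 was at 353 ± 145 CPM in fl EAE and 596 ± 118 in NestinCre EAE and Irf8 at 158 ± 143 and 356 ± 52.8, while Stat2 was at 500.1 ± 225 and 479 ± 163 and Irf7 at 180 ± 131 and 146 ± 59.9, all with overlapping samples.

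In granule cells 5 of 9 members rose, all of them from levels near 0. Irf1 was at 0.262, 0.177, 1.38 and 0.199 CPM in fl EAE 1 to 4 and at 18.7, 5.20, 9.01 and 4.17 CPM in NestinCre EAE 1 to 4 (log2 fold change 4.23 ± 0.59, adjusted p = 0.0085), with 5.19 when fl EAE 3 and 3.70 when NestinCre EAE 1 was left out. Nlrc5 was at 0.315, 0.354, 0.983 and 0.256 CPM in fl EAE and at 42.6, 3.11, 9.97 and 5.43 CPM in NestinCre EAE (4.96 ± 0.87, adjusted p = 0.021), with 3.72 when NestinCre EAE 1 was left out. NestinCre EAE 1 was the highest sample for both genes, and no samples overlapped between the groups. Irf8 rose from 0.529 ± 0.573 to 3.14 ± 0.993 CPM (2.68 ± 0.45, adjusted p = 0.017, and 3.59 without fl EAE 3), Irf7 from 0.653 ± 0.195 to 4.17 ± 2.63 (2.62 ± 0.46, adjusted p = 0.020) and Socs3 from 0.577 ± 0.304 to 2.30 ± 1.24 (1.93 ± 0.33, adjusted p = 0.019), the last with overlapping samples. Socs1 was at 0.809 ± 0.533 and 2.80 ± 1.21 CPM (1.85 ± 0.40, adjusted p = 0.055).

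The members that granule cells already carried at a steady level were not called. Stat2 was at 115 ± 7.14 and 141 ± 35.6 CPM (log2 fold change 0.27 ± 0.18, adjusted p = 0.73), and Stat3 at 45.5 ± 3.52 and 71.3 ± 26.7 CPM (0.63 ± 0.24, adjusted p = 0.42). Irf9 was at 16.02 ± 1.57 and 25.9 ± 12.0 CPM (0.67 ± 0.27, adjusted p = 0.47). In each of these 3 the highest value belonged to NestinCre EAE 1. The count of 5 calls in granule cells fell to 1, Irf1, without fl EAE 1 or without fl EAE 2, and to 3 without NestinCre EAE 1.

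Markers of immune cells moved with the genotype in 2 of these classes. All 21 immune markers had UMIs in granule cells of both EAE groups, and in mature oligodendrocytes 1 of them was at 0 in fl EAE. Of these markers, 10 of 19 tested were higher in NestinCre EAE granule cells and 5 of 9 in mature oligodendrocytes. Their summed level was 153 to 194 CPM in fl EAE and 198 to 412 CPM in NestinCre EAE granule cells, and 97.2 to 150 against 145 to 383 CPM in mature oligodendrocytes. In the naive libraries it was 182 to 350 CPM in granule cells and 121 to 291 CPM in mature oligodendrocytes. Ptprc, the pan-leukocyte gene, was at 0.708 to 1.82 CPM in fl EAE and 3.79 to 10.1 CPM in NestinCre EAE granule cells. In mature oligodendrocytes Ptprc was at 0.555 to 3.91 and 4.17 to 13.7 CPM. In Bergmann glia it was at 46.8 CPM in NestinCre EAE 1, 0 to 8.27 in the other NestinCre EAE samples and 0 to 3.69 in fl EAE. The groups overlapped for Ptprc in astrocytes and progenitors. In astrocytes and progenitors 0 of 2 markers were called, with summed levels of 103 to 265 against 149 to 317 CPM and 138 to 209 against 137 to 344 CPM. In Bergmann glia no marker was tested, and the summed level was 97.2 to 223 CPM in fl EAE and 200.4 to 533 CPM in NestinCre EAE. In microglia 1 of 8 tested markers, Cx3cr1, fell by 0.59 on the log2 scale (adjusted p = 0.034). The part of these markers in the differences of the members was not tested.

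Measured per 100 UMIs of Ptprc in the NestinCre EAE libraries, Irf8 gave 42.3 UMIs in granule cells and 33.7 in the 5 immune classes together, while Nlrc5 gave 220 and 48.0, Irf1 128 and 17.9, Irf7 57.9 and 6.01, Socs1 38.9 and 4.92, and Socs3 31.4 and 5.31. The 220 of Nlrc5 leaned on NestinCre EAE 1. In granule cells of NestinCre EAE 1 to 4 Nlrc5 was at 42.6, 3.11, 9.97 and 5.43 CPM and Ptprc at 10.1, 7.19, 8.75 and 3.79 CPM. In mature oligodendrocytes the values were 60.9 for Irf8, 54.1 for Socs1, 51.9 for Socs3, 215 for Irf7, 378 for Irf1, 552 for Irf9 and 1987 for Nlrc5. Among the values of granule cells and mature oligodendrocytes, that of Irf8 in granule cells was thus closest to the immune classes. Irf8 gave 26.1 in inhibitory neurons and 42.6 in molecular layer interneurons. When only nuclei with no UMI of the 21 markers were summed, 15 of the 20 calls outside immune classes still passed the filter and all 15 were called. The 5 that did not pass, Nlrc5 in Bergmann glia, Nlrc5 and Stat2 in progenitors, and Irf8 and Socs1 in mature oligodendrocytes, could not be tested in these nuclei. The 15 called pairs included Nlrc5 in mature oligodendrocytes (log2 fold change 3.24), granule cells (5.11) and astrocytes (2.70), Irf8 in granule cells (2.62), and Stat3 in progenitors (1.48).

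**Figure D3:**
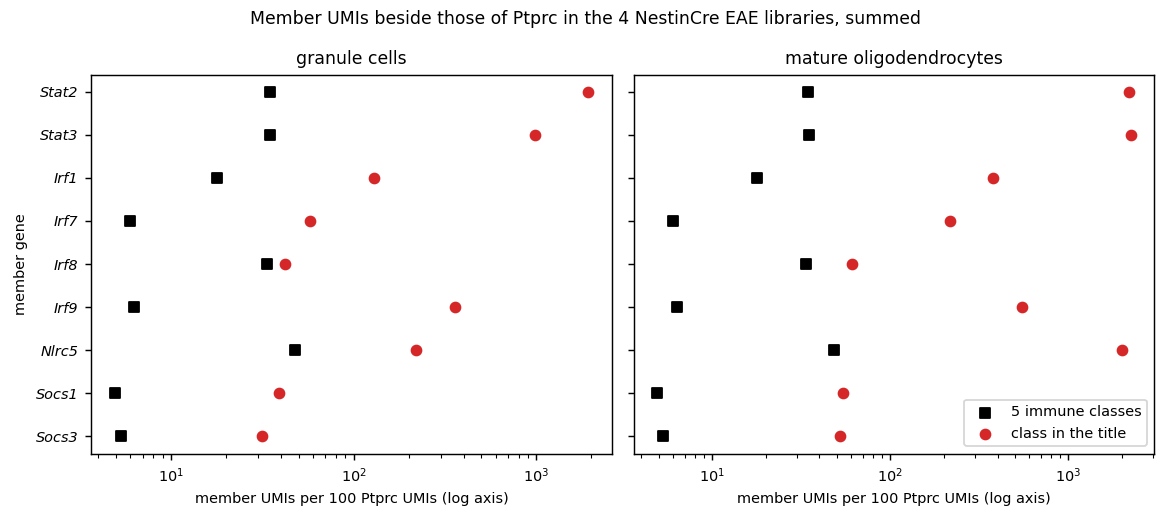
UMIs of each member per 100 UMIs of Ptprc (log axis), summed over the 4 NestinCre EAE libraries, in granule cells and in mature oligodendrocytes (circles) beside the sum of the 5 immune classes (squares). The circle of Irf8 in granule cells (42.3) lies next to its square (33.7), and that of Nlrc5 in mature oligodendrocytes (1987) lies far from its square (48.0).

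The 3 neuron classes without a call in the main fit had their nearest values in Nlrc5. In molecular layer interneurons it was at 0.528, 0.275, 0.580 and 0.549 CPM in fl EAE 1 to 4 and at 10.7, 5.02, 3.01 and 3.65 CPM in NestinCre EAE 1 to 4 (log2 fold change 3.38 ± 0.54, adjusted p = 0.095). In inhibitory neurons it was at 1.51 ± 1.97 and 7.43 ± 1.13 CPM (2.09 ± 0.49, adjusted p = 0.42), and in excitatory neurons at 3.26 ± 5.54 and 14.1 ± 11.6 CPM (1.90 ± 0.62, adjusted p = 0.70). The first of these pairs did not overlap, nor did the second, and the last did. Socs1, which had a steady level in molecular layer interneurons, was at 3.88 ± 1.26 and 3.46 ± 0.242 CPM there (-0.13 ± 0.28).

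The share of nuclei with at least 1 UMI was compared at an equal depth of 1000 UMIs, drawn at random from each nucleus, because deeper nuclei show more genes. In 33 of 86 pairs of member and class the shares gave the smallest p that 4 against 4 samples allow in an exact two-sided permutation test, 0.0286, and all 33 were higher in NestinCre EAE, but the smallest adjusted p over the 86 pairs was 0.074. Shares were computed for the members alone, so how many of all genes reach this p is not known. Nlrc5 was found in 9.49% ± 7.61 of fl EAE microglia and 42.1% ± 3.16 of NestinCre EAE microglia, and in 0.912% ± 1.40 and 11.6% ± 3.44 of mature oligodendrocytes. The fl EAE share of mature oligodendrocytes leaned on fl EAE 3 (0%, 0.281%, 2.99% and 0.373% in fl EAE 1 to 4). Stat2 was found in 10.6% ± 4.45 and 32.0% ± 4.79 of microglia, and Stat3 in 5.23% ± 1.15 and 17.7% ± 3.94 of astrocytes. In granule cells the shares of Irf8 (0.0462% and 0.326%) and of Nlrc5 (0.0556% ± 0.0540 and 1.35% ± 1.56) were small, while Stat2 was in 10.9% ± 0.723 and 12.8% ± 2.70 of these nuclei. The Nlrc5 share was 3.64%, 0.209%, 1.03% and 0.535% in NestinCre EAE 1 to 4. Without thinning, Nlrc5 was in 16.8% and 61.8% of microglia and in 0.112% and 2.69% of granule cells. Nuclei under 1000 UMIs were left out, 58 of 585 fl EAE and 71 of 1078 NestinCre EAE microglia and 1367 of 40200 and 2366 of 37003 granule cells.

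Genes around the members in the same pathways were described from lists that were chosen with earlier results of these data known. Their counts are thus a description and no independent support. Over all genes, the share called higher ran from 0.0197% in excitatory neurons to 4.73% in microglia. The 10 genes that NLRC5 is known to act on, with the class I heavy chains, B2m, the peptide transporter and the immunoproteasome, were called higher in 35 of 56 tested pairs of gene and class, and 9 of the 10 genes were called somewhere, Psmb10 being the exception. B2m, the light chain of class I, was called in 8 classes, from 1.34 ± 0.20 in microglia to 3.19 ± 0.42 in mature oligodendrocytes on the log2 scale, and these included all 4 neuron classes. H2-K1, a heavy chain, was called in 7 classes and rose from 1.21 ± 0.892 to 21.3 ± 8.25 CPM in molecular layer interneurons. The median log2 fold change of the list was 3.22 in mature oligodendrocytes, 2.75 in granule cells and 1.55 in microglia, where the median of all genes lay between -0.01 and 0.01.

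Of 12 interferon-stimulated genes, all were called in at least 1 class, in 30 of 51 pairs. Oasl2, an antiviral oligoadenylate synthetase-like gene, rose from 2.04 ± 2.47 to 93.9 ± 47.5 CPM in astrocytes (log2 fold change 5.42 ± 0.53) and from 25.2 ± 20.1 to 237 ± 46.3 CPM in microglia (2.98 ± 0.30). Ifit2, which restricts translation of viral RNA, rose from 7.05 ± 5.56 to 77.9 ± 38.4 CPM in microglia (3.21 ± 0.48), and Rnf213, a large ubiquitin ligase, was called in 4 classes with values from 1.35 ± 0.27 in astrocytes to 1.81 ± 0.27 in microglia. None of the 14 pairs of other STAT genes, the 19 of other IRF genes or the 24 of Janus kinases was called. With 0.0197% to 4.73% of all genes called higher per class, so few pairs would seldom hold a call. The absence of calls is therefore no result about these families. Among other MHC regulators only Ciita, the class II transactivator, rose, in microglia (3.09 ± 0.30, adjusted p = 1.6e-06). Among 12 other feedback inhibitors only Usp18, which dampens type I interferon receptors, rose, in microglia (1.74 ± 0.28) and mature oligodendrocytes (3.14 ± 0.47). In the list of the interleukin-6 family and Stat3 targets 2 of 35 pairs were called, Il6ra in granule cells (1.52 ± 0.30) and Bcl3 in mature oligodendrocytes (3.08 ± 0.49). Ciita, Il6ra, Bcl3 and Psmb10, like Cx3cr1 above, were named after their values were seen.

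Setting EAE beside the naive state asked whether the members changed with disease within each genotype. It had 2 fl naive samples and 1 NestinCre naive sample, with none in run 1. Run 3 held no EAE sample, so with the run term the contrast in fl mice rested on fl naive 2 alone. The contrast in NestinCre mice also drew on fl naive 3 and NestinCre naive 2 of run 3. In fl mice 0 of 64 tested pairs were called by edgeR, where 0.150% of all pairs of gene and class were called. An unadjusted p under 0.05 was found for 7 pairs, 3 in microglia, 2 in inhibitory neurons and 1 each in astrocytes and Bergmann glia. Over all genes these classes had 577 of 8712, 1185 of 14517, 747 of 8548 and 409 of 5481 at that p. With no filter beyond 1 UMI there was 1 call, Nlrc5 in microglia. In NestinCre mice 1 of 64 pairs was called, Nlrc5 in microglia, beside 0.0653% called over all pairs and 0.184% called higher among genes of microglia. At an unadjusted p under 0.05 there were 18 pairs, 6 in microglia, 5 in mature oligodendrocytes and 2 each in astrocytes and progenitors. Border macrophages, granule cells and inhibitory neurons had 1 each. Over all genes, microglia had 786 of 8712 at that p and mature oligodendrocytes 1230 of 13627. Astrocytes had 526 of 8548, progenitors 398 of 6754, border macrophages 105 of 1619, granule cells 1103 of 16989 and inhibitory neurons 991 of 14517. Nlrc5 was at 19.6 CPM in NestinCre naive 2 and at 518 to 581 CPM in NestinCre EAE microglia (log2 fold change 5.87 ± 1.21, adjusted p = 0.037), and at 35.4 and 80.1 CPM in fl naive 2 and 3. The spread of the single NestinCre naive library had to be taken from the other groups, and since its run held no EAE sample, the fitted value was carried across runs through the fl naive libraries and exceeds the ratio of the levels.

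The count in NestinCre mice depended on how the few naive samples entered the fit. It was 9 without the run term and 14 with both naive genotypes as 1 group of 3 samples. In the latter fit 7 calls were in mature oligodendrocytes and 6 in microglia, with 1 in progenitors. The fit without the run term pooled samples of different runs, so the run and the disease cannot be told apart in it. The fit with 1 naive group kept the run term and took both naive genotypes as alike. As run 3 held no EAE sample, the contrast of that fit rested on fl naive 2, a sample of the other genotype. Naive levels lay close to those of fl EAE 1 and fl EAE 2 for many members. In mature oligodendrocytes of the naive samples, in the order fl 2, fl 3 and NestinCre 2, Stat2 was at 56.1, 51.9 and 38.3 CPM, Irf1 at 0.663, 0.463 and 0.225 CPM, and Nlrc5 at 1.99, 1.85 and 1.58 CPM. All of these were below every NestinCre EAE sample.

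The test of whether the genotype difference in EAE exceeds that in naive mice called 0 of 64 pairs, where 0.000975% of all pairs were called. At an unadjusted p under 0.05 there were 19 pairs, 4 each in granule cells and mature oligodendrocytes. Astrocytes, inhibitory neurons and microglia had 3 each, and Bergmann glia and progenitors 1 each. Over all genes, granule cells had 748 of 16989 at that p and mature oligodendrocytes 676 of 13627. Astrocytes had 412 of 8548, inhibitory neurons 710 of 14517, microglia 593 of 8712, Bergmann glia 230 of 5481 and progenitors 379 of 6754. Of the 19 pairs, Stat2 in astrocytes had the smallest unadjusted p, with a difference of log2 fold changes of 2.74 ± 0.61. Nlrc5 in microglia had a larger difference, 3.99 ± 1.06. DESeq2 gave 1 call, Stat2 in mature oligodendrocytes. This design has 1 NestinCre naive library, and other edgeR settings gave 0 to 4 calls.

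**Figure D4:**
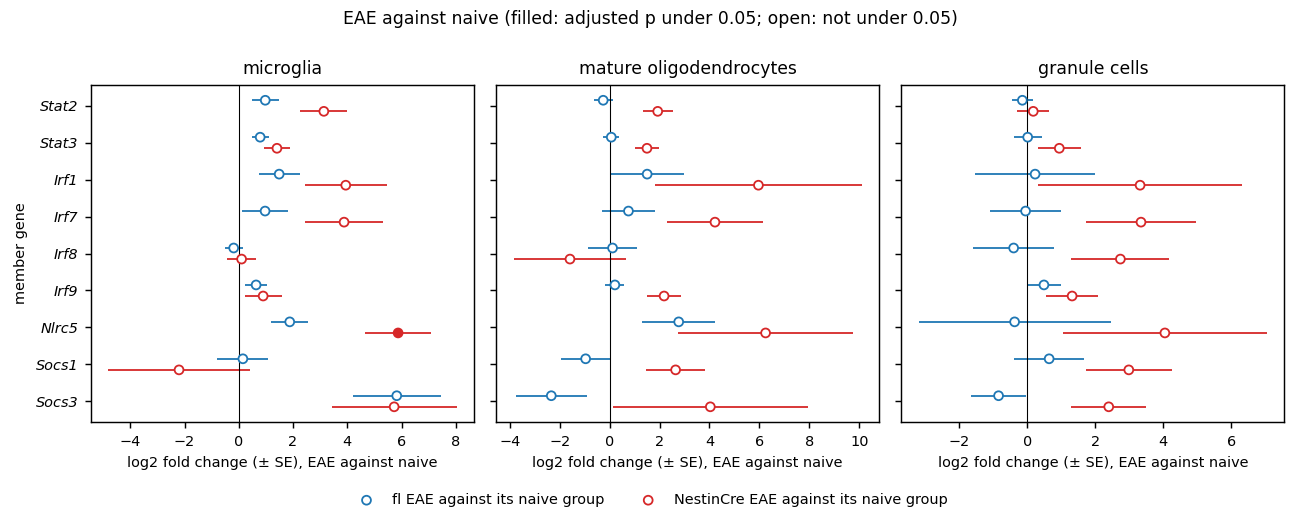
Log2 fold change of EAE against naive for each member in fl mice and in NestinCre mice, in microglia, mature oligodendrocytes and granule cells. Points are filled where the adjusted p was under 0.05, and bars are 1 approximate SE. The NestinCre value of Nlrc5 in microglia (5.87) is the single call of the 64 pairs. Bar widths differ between members, from 0.47 for Stat2 to 3.00 for Nlrc5 in granule cells of NestinCre mice, and what sets them was not tested.

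Genes with the most similar pattern were sought among 18706 genes by Pearson's r of log2(CPM + 1) over the 30 means of 10 classes in fl EAE, NestinCre EAE and naive samples, points that share libraries, so that r is a description. For Nlrc5 they were Irgm2 (0.96), Gbp7 (0.95) and Oasl2 (0.95), and for Irf1 Gbp7 (0.97), Gm17334 (0.96) and Tap1 (0.96). Gm17334 overlaps 3144 bases of Irf1 on the opposite strand (GRCm39), and whether the counting kept the strands apart for the pair was not tested. For Irf8 they were Ptprc (0.98), Sp110 (0.98) and C1qc (0.98), of which the first and last are genes of leukocytes and microglia. Stat3 was closest to Dtx3l (0.94), Gm17334 (0.93) and Gbp7 (0.92), and Stat2 to Zbp1 (0.84), Gbp8 (0.83) and Iigp1 (0.83). Irf7 was closest to Ifi27l2a (0.89), Psmb8 (0.85) and Psmb9 (0.83), and Irf9 to Parp10 (0.89), Parp14 (0.88) and Gm4951 (0.86). Socs1 was closest to Isg15 (0.84), Hcst (0.82) and Tgtp2 (0.78), and Socs3 to BC147527 (0.89), Gbp5 (0.86) and Ctse (0.86). Among the members themselves, Stat3 and Irf1 were most alike (0.92), followed by Irf1 and Nlrc5 (0.91).

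The direction of the 26 called pairs was the same in every alternative fit in which they were tested, and 16 of them were called in all of these. The 16 included all members called in mature oligodendrocytes except Irf1, all 3 in astrocytes, Irf1 in granule cells, Stat2 in progenitors, and Irf1, Nlrc5, Socs1 and Stat2 in microglia.

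**Figure D5:**
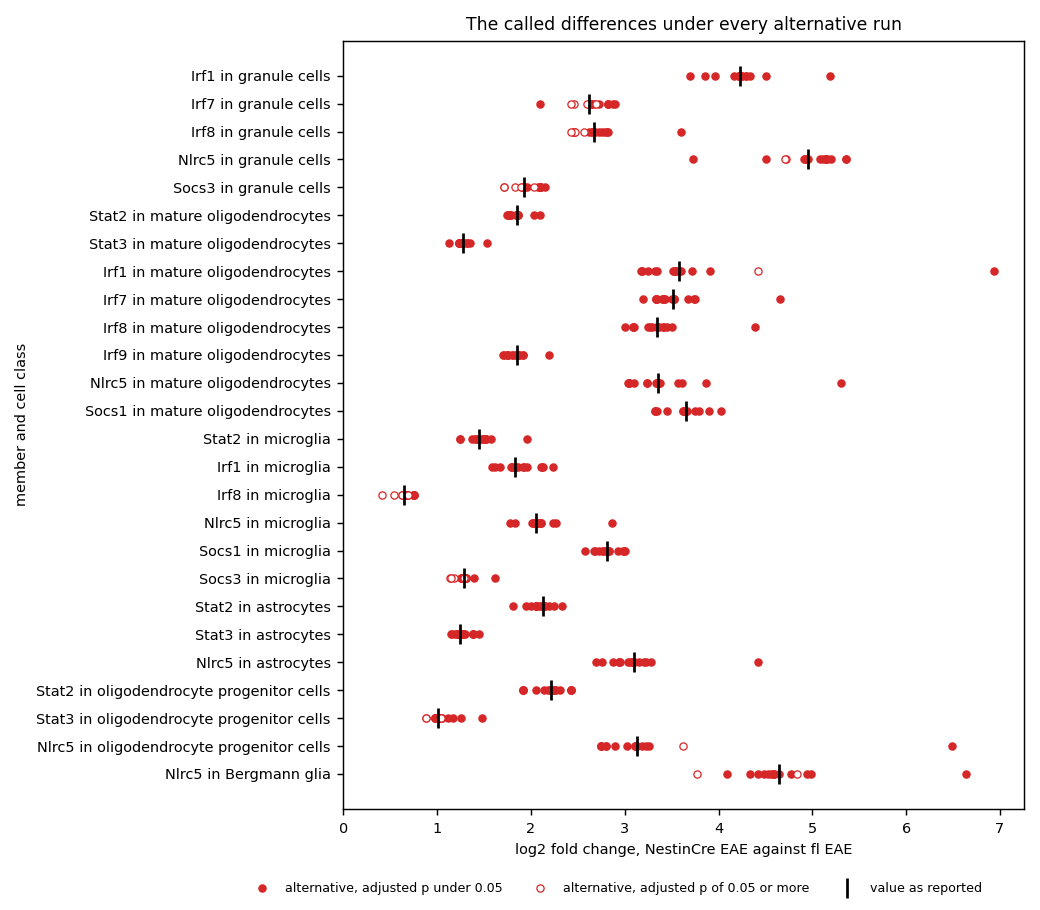
Log2 fold change of the 26 called pairs of member and class under each alternative fit (circles, filled where the adjusted p was under 0.05 and open where it was not) beside the value as reported (black bar). All circles lie above 0, with the widest range for Irf1 in mature oligodendrocytes, from 3.17 to 6.93.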

How the data were processed

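The authors sorted nuclei by a DNA dye and sequenced their RNA with 10x Genomics 3′ chemistry. The deposited matrices hold counts of UMIs per gene and barcode, without normalization, aligned to GRCm39 with reads in introns included. Per the file headers, Cell Ranger 7.0.0 was used for run 1 and 6.0.2 for runs 2 and 3. Nuclei were kept with at least 200 genes (run 1) or 500 genes (runs 2 and 3) and under 5% mitochondrial UMIs, and the highest doublet scores (0.8% per 1000 barcodes) and clusters with over 40% of them were left out. Clusters (igraph 0.11.9) were named where at least 3 markers of 1 of 25 types reached 20 CPM and 2 times the median cluster, and 13460 kept nuclei stayed unnamed.

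For each class the UMIs of a sample were added up. The sums were tested by the quasi-likelihood method of edgeR 4.0.16 (R 4.3.3) after filterByExpr and TMM scaling, with run as covariate and Benjamini-Hochberg adjustment over all genes of a class and a threshold of 0.05. The ± of a log2 fold change is an approximate SE, its absolute value divided by the square root of the test's F statistic. The script was tested on simulated data. The genotype comparison used the 8 EAE samples, the others all 11. DESeq2 1.42.0, other filters and subsets of samples and nuclei were alternatives. Tables were made in Python 3.11.15. The 9 members and all gene lists were chosen with earlier results of these data known. Named were all members, up to 4 genes of a list called in at least 2 classes, with the smallest adjusted p, and the 3 genes closest in pattern to each member among those with at least 50 UMIs. A further STAT gene is not reported here and was left out of the search for similar patterns.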

Additional observations from a re-analysis of the deposited data

Results flagged for a closer look

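In 100 groups of 4 EAE samples, 1 for each genotype and tested pair of member and class, the gap between an extreme sample and its nearest neighbour was compared with Dixon's 95% critical value, and 16 samples lay beyond it. Chance alone puts about 5% of such groups there.

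Of these, 8 lay in fl EAE 3 or NestinCre EAE 1 and were high for Nlrc5 or for Irf1 and Irf8. Nlrc5 in fl EAE 3 was at 31.2 CPM in Bergmann glia against 0 to 2.16 in the other fl EAE samples, at 52.5 CPM in progenitors against 0 to 3.54, at 11.6 CPM in excitatory neurons against 0 to 0.901 and at 0.983 CPM in granule cells against 0.256 to 0.354. In the same sample Irf1 was at 6.68 CPM in mature oligodendrocytes against 0 to 0.615 and at 1.38 CPM in granule cells against 0.177 to 0.262, and Irf8 was at 1.38 CPM in granule cells against 0.114 to 0.315. The sample held 40 infiltrating nuclei against 10 to 28 in the other fl EAE samples, and their part in these values was not tested. Nlrc5 in Bergmann glia of NestinCre EAE 1 was at 543 CPM against 85.8 to 120 in the others of its group.

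The other 8 values lay in several samples, fl EAE 3 again among them. NestinCre EAE 2 was low in mature oligodendrocytes for Stat2 (95.2 CPM against 176 to 187) and Irf7 (8.91 against 17.7 to 19.1). NestinCre EAE 4 was low for Nlrc5 in microglia (518 CPM against 577 to 581). Stat3 was at 515 CPM in border macrophages of NestinCre EAE 3 against 298 to 329, and at 65.8 CPM in excitatory neurons of fl EAE 3 against 39.2 to 41.4. Irf9 in microglia of fl EAE 4 was at 95.7 CPM against 55.4 to 61.7. In molecular layer interneurons of fl EAE 2, Nlrc5 was at 0.275 CPM against 0.528 to 0.580 and Socs1 at 5.78 CPM against 3.17 to 3.29.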

How the results depend on the processing

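The number of members called between genotypes in EAE, 26, was 22 with DESeq2, 25 with library size alone, 39 with no filter beyond 1 UMI, 25 with no run term, 27 in run 1 alone, 27 with only doublet-rich clusters left out and 26 below 6000 UMIs, and between 20 and 30 with 1 sample left out. In classes other than immune cells it went from 20 to 15 in nuclei without immune-marker UMIs, where fewer pairs passed the filter (0 in Bergmann glia, 1 in progenitors and 6 in mature oligodendrocytes). DESeq2 kept 20 of the 26 calls. By class, the count in granule cells was 1 without fl EAE 1 or fl EAE 2, 3 without NestinCre EAE 1 and 3 with the replicate block. In progenitors it was 1 with DESeq2 and 6 with no filter beyond 1 UMI, and in astrocytes 5 with that filter. In Bergmann glia it was 0 with DESeq2 and without NestinCre EAE 1, and 2 without NestinCre EAE 2 or fl EAE 4. In microglia it was 4 without NestinCre EAE 1 or 3 and with DESeq2. Not every same-numbered pair deviated together (correlations of -0.20 for replicate 1 and 0.30 for replicate 2 in granule cells). Replicate 2 correlated best with its own number in 8 of 10 classes, but in no class was every correlation over 0.1, so the numbers were not taken to pair the samples, and with the replicate block 24 calls were made overall.

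For EAE against naive the count in fl mice, 0, was 1 with no filter beyond 1 UMI and 0 with each sample left out. The count in NestinCre mice, 1, was 2 with no filter beyond 1 UMI, 9 with no run term, 14 with both naive genotypes as 1 group, and between 1 and 2 with 1 sample left out, with 2 without fl EAE 3. The interaction count, 0, was 1 with DESeq2 and 1 with no run term. In alternatives chosen after seeing the data, it was 4 with no filter beyond 1 UMI and between 0 and 1 with 1 sample left out, where omitting fl EAE 3, like omitting NestinCre EAE 1, gave 1. The cause of these shifts was not tested. The shares gave 0 calls thinned, unthinned and with 1 sample left out, where the permutations allow no smaller p. Low counts kept 40 of 90 pairs from passing the filter, and NestinCre naive had 1 library.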
